A study of Mus musculus with 18 samples.

Results

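The tumour necrosis factor (TNF) superfamily is the set of cytokine ligands and cell surface receptors named after TNF. Its members were taken here as every gene of the count tables whose mouse symbol begins with Tnfrsf or Tnfsf and a digit, together with Tnf, Lta, Ltb, Ltbr, Fas, Fasl, Cd40, Cd27 and Cd70, with a summed count of at least 50 over the 18 libraries. Of 30583 genes in the tables, 35 met this rule: 11 ligands, 23 receptors and Tnfsf13os, an RNA antisense to the ligand gene Tnfsf13. Just inside the minimum were Tnfrsf13c with 62 counts and Tnfsf18 with 64, and just outside it were Lta with 25 counts, Fasl and Tnfsf15 with 24 each, Tnfrsf17 with 23 and Tnfsf4 with 20. Cd70 is not listed in the tables used here.

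Bulk RNA-seq had been made from the hearts of 12-week-old male C57BL/6JR mice, 3 mice in each of 6 groups. In 5 of the groups the left anterior descending coronary artery was tied, an operation that infarcts the wall of the left ventricle, and hearts were taken at 1 of 5 times from 10 min to 72 h later. The sham group (0 h) had the suture passed but not tied, and all mice had been anaesthetised with sodium pentobarbital and, before death, isoflurane. RNA came from the infarcted region of the ventricle and was selected on oligo-dT beads. Totals ran from 18199172 to 25062351 counts per library.

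The labels name the cell type as cardiomyocytes, but markers of several cell types were present, and no step that separates cells is described. The 6 cardiomyocyte markers Myh6, Tnnt2, Tnni3, Actc1, Ryr2 and Pln together held between 47800 and 52000 CPM in the sham libraries and between 13200 and 17200 CPM at 72 h, where CPM is the usual depth-scaled count, here with TMM-scaled library sizes. Over the same groups 6 macrophage and monocyte markers, all called higher at 72 h, went from between 179 and 200 CPM to between 2640 and 3450 CPM. The 5 fibroblast markers, also all called higher, went from between 645 and 712 CPM to between 8200 and 10700 CPM. Most of that rise was in Col1a1 (group means of 74.4 CPM in sham and 3550 CPM at 72 h) and Col3a1 (135 and 5070 CPM). The means of the others rose less: Dcn from 412 to 514 CPM, Pdgfra from 40.1 to 79.3 CPM and Tcf21 from 12.6 to 30.9 CPM. The 6 neutrophil markers summed to 2.31 to 3.63 CPM in sham, 103 to 757 CPM at 6 h, 36.1 to 663 CPM at 24 h and 51.4 to 61.5 CPM at 72 h. T cell markers stayed between 1.24 and 3.21 CPM up to 24 h and stood at 4.64 to 6.62 CPM at 72 h, and the 3 natural killer cell markers never exceeded 0.639 CPM. In bulk tissue fewer cells of a type and less RNA per cell cannot be told apart, and the part of these shifts in the results that follow was not tested.

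A pair of libraries stood apart from the others of their group. The library labelled 24 h replicate 3 held 663 CPM of neutrophil markers against 157 and 36.1 CPM in the other 24 h libraries, and 20700 CPM of cardiomyocyte markers against 32000 and 33000 CPM. The library labelled 6 h replicate 1 held 757 CPM of neutrophil markers against 269 and 103 CPM. It also held 151 CPM of the atrial markers Myl7, Sln and Myl4, which lay between 1.47 and 3.41 CPM in the other 17 libraries. Results that rest on either library are given with and without it.

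TNF superfamily ligands are mostly trimeric proteins on the cell surface that are cut free by proteases, and each binds one or a few receptors. Receptors with a death domain can recruit caspase-8 or, as TNF receptor 1 does, a complex that activates NF-kB; receptors without one bind TRAF adaptors, and decoy receptors bind ligand without signalling. In the heart TNF, TWEAK (Tnfsf12) with its receptor Fn14 (Tnfrsf12a), and the RANK ligand (Tnfsf11) with its decoy osteoprotegerin (Tnfrsf11b) are among the members most studied after infarction.

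The promoters of 6 members are shown because these genes moved with the largest statistical weight at 6 h (Tnfrsf12a) and 72 h (Tnfrsf11a), or because they were higher at 6 h and held letters of an AP-1 or NF-kB motif (Fas, Tnfrsf9, Tnfsf14 and Ltb, chosen after their values and motifs were seen). Each line is the 250 bases before a RefSeq transcript start on GRCm38.p6, read 5′ to 3′ on the gene's strand, with motif letters in capitals. Coordinates are chr17:23677450-23677699 (minus strand) for Tnfrsf12a, chr1:105780473-105780722 (plus) for Tnfrsf11a, chr19:34290409-34290658 (plus) for Fas, chr4:150927749-150927998 (plus) for Tnfrsf9, chr17:57194182-57194431 (minus) for Tnfsf14 and chr17:35194257-35194506 (plus) for Ltb.
Tnfrsf12a: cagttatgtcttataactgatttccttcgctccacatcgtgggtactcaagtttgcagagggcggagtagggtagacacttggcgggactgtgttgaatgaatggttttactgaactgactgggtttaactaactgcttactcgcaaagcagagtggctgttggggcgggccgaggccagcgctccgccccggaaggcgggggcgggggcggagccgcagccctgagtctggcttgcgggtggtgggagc
Tnfrsf11a: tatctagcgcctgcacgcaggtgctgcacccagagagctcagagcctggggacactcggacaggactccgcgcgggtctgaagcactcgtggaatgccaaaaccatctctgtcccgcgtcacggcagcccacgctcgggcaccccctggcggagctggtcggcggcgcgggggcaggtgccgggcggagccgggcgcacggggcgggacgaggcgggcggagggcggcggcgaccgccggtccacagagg
Fas: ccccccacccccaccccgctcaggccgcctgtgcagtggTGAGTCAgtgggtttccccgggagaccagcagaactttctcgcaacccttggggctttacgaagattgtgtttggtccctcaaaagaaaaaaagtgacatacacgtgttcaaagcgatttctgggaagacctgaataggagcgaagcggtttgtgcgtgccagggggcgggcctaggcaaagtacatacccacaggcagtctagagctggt
Tnfrsf9: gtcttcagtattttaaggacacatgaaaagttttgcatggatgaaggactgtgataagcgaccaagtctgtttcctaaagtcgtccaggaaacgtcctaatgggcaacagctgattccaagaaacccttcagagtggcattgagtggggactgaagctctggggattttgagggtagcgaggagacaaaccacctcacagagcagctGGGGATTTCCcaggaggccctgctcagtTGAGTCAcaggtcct
Tnfsf14: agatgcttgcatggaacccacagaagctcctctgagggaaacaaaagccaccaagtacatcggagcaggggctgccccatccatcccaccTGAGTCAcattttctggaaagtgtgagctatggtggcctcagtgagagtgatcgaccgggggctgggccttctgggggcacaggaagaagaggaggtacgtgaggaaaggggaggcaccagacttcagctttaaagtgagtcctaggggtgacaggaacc
Ltb: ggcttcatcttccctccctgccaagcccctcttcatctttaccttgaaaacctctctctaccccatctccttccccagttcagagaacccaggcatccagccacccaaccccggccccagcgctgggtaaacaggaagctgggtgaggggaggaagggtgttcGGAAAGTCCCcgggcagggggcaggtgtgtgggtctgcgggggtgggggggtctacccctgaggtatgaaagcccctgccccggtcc
The motifs searched on both strands were AP-1 (TGANTCA), NF-kB (GGG, any 3 bases, TTCC) and a TATA box (TATAAA). Counted from the transcript start, AP-1 letters began at -211 in Fas, -160 in Tnfsf14 and -15 in Tnfrsf9, and NF-kB letters began at -43 in Tnfrsf9 and -87 in Ltb. RefSeq windows were at hand for 27 of the 35 members. At least 1 window held AP-1 letters in 6 of them, against 7.82% of all genes with windows, NF-kB letters in 3 (5.31% of all genes) and a TATA box in 4, namely Tnf, Tnfrsf23, Tnfsf11 and Tnfsf18 (14.3% of all genes). None of the 3 motifs was found in the Tnfrsf12a and Tnfrsf11a windows, which says only that those letters are not in these 250 bases. Tnfrsf9 has another window, chr4:150919905-150920154 (plus), which is not shown and held none of the 3 motifs.

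No member was called against sham in the first hour. At 10 min and at 1 h 0 of the 32 members tested passed an adjusted p of 0.05 in edgeR's quasi-likelihood test, beside 0.0736% and 0.294% of all 16311 genes tested. DESeq2 and limma on log2(FPKM + 1) also called 0 at both times. At an unadjusted p under 0.05, 4 members stood lower at 10 min (Tnfsf9, Tnfsf13, Tnfrsf18 and Tnfsf10) and 0 differed at 1 h. Of all 16311 genes, 1144 differed at 10 min and 899 at 1 h at that threshold. Between 10 min and 1 h 0 members were called, against 0.307% of all genes. At an unadjusted p under 0.05 there were 2 members, beside 1212 of all 16311 genes. Cd27, Tnfrsf13c and Tnfsf18 fell below the count filter of that test, so the 32 are not the whole family. With a summed count of 50 as the filter, Tnfrsf13c and Tnfsf18 were called higher at 24 h and 72 h, and Cd27 was not called.

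From 6 h the family moved, mostly upward. At 6 h 12 members were higher than sham, where 16.3% of all genes were, and 3 were lower, where 12.2% were. At 24 h 17 members were higher (23.7% of all genes) and 2 lower (20.2% of all genes). At 72 h 20 members were higher (34.2% of all genes) and 2 lower (32.2% of all genes). The median log2 fold change of the tested members was 0.94, 1.17 and 1.32 at the 3 times, beside -0.01, 0.01 and 0.03 over all genes. Of the tested members, 7 had under 10 counts in every sham library and so entered the test through later groups, which bears on these counts and medians. All 5 comparisons share the same 3 sham libraries. Over all 6 groups 28 of the 32 differed, where 78.4% of all genes did. Against sham 26 members were called at 1 time or more. The share of all genes for that count is not given here, but at 72 h alone 10831 of 16311 were called.

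**Figure D1:**
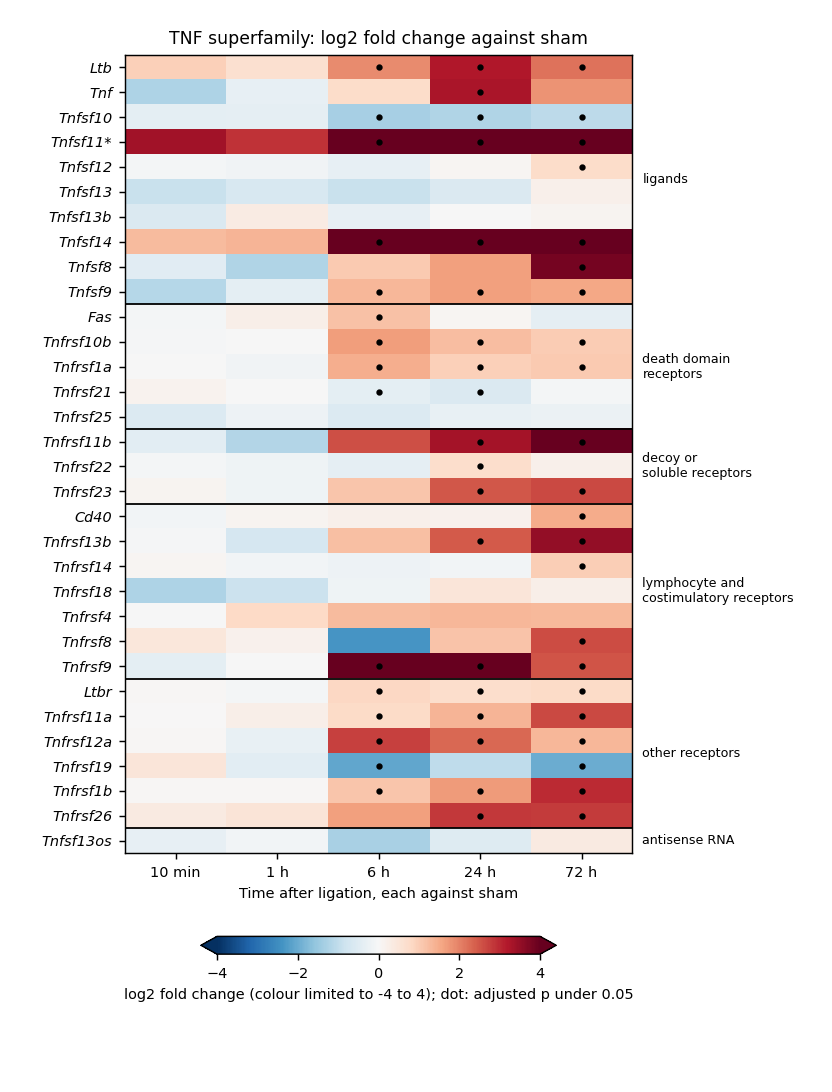
Log2 fold change against sham (colour, limited to -4 to 4) for the 32 tested members, in rows grouped by role, at the 5 times after ligation, in columns; a dot marks an adjusted p under 0.05. No dot stands at 10 min or 1 h, 15 stand at 6 h, 19 at 24 h and 22 at 72 h. The asterisk marks Tnfsf11, which had 0 counts in all 3 sham libraries, so that its colours are no measure of size.

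Among the ligands, Tnfsf10 and Tnfsf12 had the highest levels in sham. Levels are compared between genes only as CPM per kilobase of the transcript length behind the deposited FPKM. On that scale Tnfsf10 stood at 5.65 ± 0.369 and Tnfsf12 at 5.01 ± 0.238 in sham (SD, n = 3), and together they made up 42.7% and 37.9% of the summed ligand level. Tnf made up 3.14% ± 1.30 of it. The other ligands were lower, from 0.761 for Tnfsf9 down to Tnfsf11, which had no count in the 3 sham libraries.

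Tnfsf10 (chromosome 3, 27317028 to 27342427, GRCm38) encodes TRAIL, a ligand that can trigger apoptosis through DR5, the product of Tnfrsf10b. It stood at 27.8, 31.6 and 29.9 CPM in the sham libraries and between 18.9 and 28.9 CPM in the 6 libraries of 10 min and 1 h. The values were 9.95, 12.5 and 13.1 CPM at 6 h, 12.7, 16.3 and 9.38 CPM at 24 h and 13.1, 17 and 13 CPM at 72 h. Every library from 6 h on lay below every sham library. Against sham the log2 fold change was -1.33 ± 0.19 at 6 h (SE, adjusted p = 8.31e-05), -1.21 ± 0.19 at 24 h (adjusted p = 8.75e-05) and -1.05 ± 0.18 at 72 h (adjusted p = 6.61e-05). It was called lower at these times in each fit that left out 1 library. At 72 h the size depended on the scaling: with library totals in place of TMM factors it was -0.46 (adjusted p = 0.0445), and with limma on log2(FPKM + 0.1) no call was made. The deposited FPKM are also scaled by library totals, so each limma fit shares that scaling. The receptor gene Tnfrsf10b moved the other way, as described below.

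Tnfsf12, which encodes TWEAK, changed late. It held 7.18, 7.83 and 7.77 CPM in sham, 5.30, 6.41 and 6.28 CPM at 6 h, 6.82, 10.5 and 6.60 CPM at 24 h, and 12.2, 12.2 and 13.7 CPM at 72 h. The 3 libraries of 72 h lay above all others, with a log2 fold change of 0.74 ± 0.15 (adjusted p = 0.000367), while 6 h and 24 h were not called (adjusted p = 0.126 and 0.716). Exons of Tnfsf12 share 731 bases with the read-through gene Tnfsfm13, so its counts may include or lose reads of that transcript.

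The rise of Tnf at 24 h rested largely on one mouse. The sham libraries held 0.961, 0.622 and 0.444 CPM and those of 6 h 1.49, 1.15 and 0.746 CPM. At 24 h the values were 1.55, 1.84 and 16.2 CPM, and at 72 h 1.83, 3.53 and 1.65 CPM. At 24 h the log2 fold change was 3.25 ± 0.79 (adjusted p = 0.00414), and 1.34 (adjusted p = 0.0194) without 24 h replicate 3. It was not called when only the sham and 24 h libraries were fitted, and DESeq2 gave it no adjusted p. At 72 h it was 1.80 with an adjusted p of 0.0598 (2.38 with library totals, adjusted p = 0.0154), although none of the 72 h libraries overlapped those of sham. Tnf was called higher at 72 h in each fit that left out 24 h replicate 1, 2 or 3. It was also called there when only the sham and 72 h libraries were fitted, and by both limma fits, which share the library-total scaling.

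Ltb, which encodes lymphotoxin beta, shares this stretch of chromosome 17 with Tnf: the 2 genes lie within 8 kb, Ltb at 35194439 to 35196320 on the plus strand and Tnf at 35199381 to 35202007 on the minus strand. Its values were 0.657, 0.674 and 0.533 CPM in sham, 4.35, 1.34 and 1.38 CPM at 6 h, 3.63, 1.73 and 12.2 CPM at 24 h and 2.93, 2.62 and 2.86 CPM at 72 h. All 9 libraries from 6 h on lay above the sham libraries, as did those of 10 min at 0.996, 1.39 and 1.17 CPM, where no call was made. Ltb was at a log2 fold change of 1.90 at 6 h (adjusted p = 0.0477), 3.21 at 24 h (adjusted p = 0.00112) and 2.17 at 72 h (adjusted p = 0.00833). The call at 6 h was lost in 14 of 18 fits that left out 1 library, and without 6 h replicate 1 the value was 1.13 (adjusted p = 0.284). Without 24 h replicate 3 the 24 h value was 2.09 (adjusted p = 0.00247).

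Tnfsf14 (LIGHT, a ligand of both the lymphotoxin beta receptor and Tnfrsf14) went from near absence in sham to higher levels from 6 h on. Only 2 counts were found over the 3 sham libraries, against 190 at 6 h, 354 at 24 h and 339 at 72 h. Scaled for depth these are ratios of 104 (95% counting interval 28.3 to 862), 154 (42.3 to 1280) and 109 (29.9 to 902), which cover counting error only. The libraries of 6 h held 7.21, 2.30 and 1.12 CPM, those of 24 h 3.37, 1.17 and 12.5 CPM and those of 72 h 3.34, 3.65 and 3.60 CPM. The adjusted p was 0.00233, 0.000489 and 0.000452 at the 3 times. The spread was wide at 6 h and 24 h, where 6 h replicate 1 and 24 h replicate 3 were highest, and narrow at 72 h. Without 24 h replicate 3 the fitted log2 change at 24 h went from 7.2 to 5.88 (adjusted p = 0.000768). Without 6 h replicate 1 that at 6 h went from 6.52 to 5.50 (adjusted p = 0.01).

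**Figure D2:**
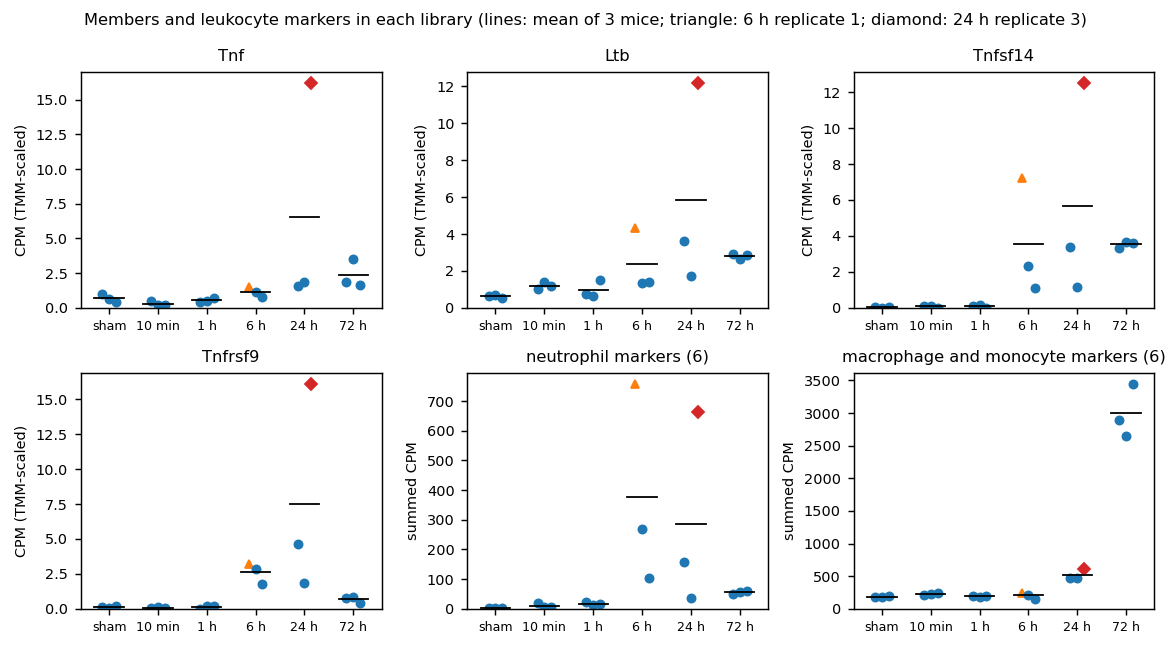
Level of Tnf, Ltb, Tnfsf14 and Tnfrsf9 in each library (TMM-scaled CPM, linear axes from 0) beside the summed CPM of 6 neutrophil and 6 macrophage and monocyte markers, by group; points are libraries and lines are means of 3 mice. In 24 h replicate 3 (diamond) Tnf stood at 16.2 CPM and Tnfrsf9 at 16.1 CPM, above every other library, and the neutrophil markers at 663 CPM; the macrophage markers were highest at 72 h.

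Tnfsf9, which encodes the ligand of 4-1BB, rose at all 3 late times, with log2 fold changes of 1.32 ± 0.32, 1.63 ± 0.31 and 1.56 ± 0.31. It stood at 0.936 ± 0.113 CPM in sham, 2.35 ± 0.232 at 6 h, 2.95 ± 1.46 at 24 h and 2.79 ± 0.617 at 72 h (SD, n = 3). Without 24 h replicate 3, which held 4.64 CPM, the 24 h log2 fold change was 1.17 (adjusted p = 0.00324). The step from 24 h to 72 h was then 0.39 and was not called (adjusted p = 0.205). An antisense gene, Gm11110, overlaps 192 bases of the Tnfsf9 exons. Tnfsf8, the CD30 ligand gene, was called at 72 h: 3 counts over the sham libraries and 74 over those of 72 h gave a ratio of 15.8 (95% counting interval 5.21 to 78.5). Tnfsf13 and Tnfsf13b encode APRIL and BAFF, which keep B cells alive, and with TMM factors over all 18 libraries neither was called against sham. Tnfsf13b stood at 1.5 ± 0.106 CPM in sham and 1.63 ± 0.433 CPM at 72 h, and Tnfsf13 at 1.12 ± 0.0885 and 1.29 ± 0.252 CPM. With library totals both were called higher at 72 h (0.79 for Tnfsf13, adjusted p = 0.0464, and 0.70 for Tnfsf13b, adjusted p = 0.0326). Limma, on FPKM with that same scaling, also called both higher there and called Tnfsf13 lower at 6 h. Tnfsf13 shares 1204 exon bases with Tnfsfm13 or, on the other strand, with Tnfsf13os, and how the strand was counted is not given. Tnfsf18 held 4 counts over the sham libraries and fell below the count filter.

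Tnfrsf12a, the receptor of TWEAK, had the highest level of the family in every group. In sham it stood at 51.8 ± 0.674 CPM per kilobase, 46.2% ± 0.763 of the summed receptor level, and at 6 h it made up 73.8% ± 6.11 of that sum. The length behind the deposited FPKM was 963 bases, while the annotated exons cover 1932 bases. With the longer length Tnfrsf12a stood at 25.8 in sham, 29.9% of the sum, and 58.7% at 6 h, which still placed it above Tnfrsf1a at 18. The summed receptor level was 112 ± 1.44 CPM per kilobase in sham, 459 ± 122 at 6 h, 352 ± 85.2 at 24 h and 250 ± 10.4 at 72 h. The ligands summed to 13.2 ± 0.410 in sham, 12.9 ± 2.33 at 6 h and 20.4 ± 1.22 at 72 h. At 24 h their sum ran from 14.5 to 35.8, above the sham libraries at 12.8 to 13.6.

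The gene lies on the minus strand of chromosome 17 (23675445 to 23677468). Tnfrsf12a held 50.4, 50.0 and 49.1 CPM in the sham libraries and between 32.7 and 62.0 CPM in the 6 libraries of 10 min and 1 h. It then stood at 386, 206 and 402 CPM at 6 h, 193, 240 and 302 CPM at 24 h and 123, 136 and 118 CPM at 72 h. The 9 late libraries all lay above the 9 early ones. Tnfrsf12a was at a log2 fold change of 2.73 ± 0.25 at 6 h (adjusted p = 3.86e-06), 2.30 ± 0.25 at 24 h (adjusted p = 7.00e-06) and 1.33 ± 0.24 at 72 h (adjusted p = 0.000142). Between 24 h and 72 h it fell by 0.96 (adjusted p = 0.00299), a step that limma on log2(FPKM + 1) did not call. Its ligand Tnfsf12 was highest at 72 h, so the pair did not peak together: at 6 h the receptor was 6.64-fold and the ligand 0.791-fold the sham level, and at 72 h 2.52-fold and 1.67-fold.

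Of the 5 death domain receptors, 3 were higher and 1 lower at 6 h, 2 higher and 1 lower at 24 h, and 2 higher at 72 h. Of all genes 16.3% were higher and 12.2% lower at 6 h, 23.7% and 20.2% at 24 h, and 34.2% and 32.2% at 72 h. Tnfrsf1a (TNF receptor 1, on most cell types) lies on chromosome 6 at 125349362 to 125362484. It held 49.6, 44 and 46 CPM in sham, 144, 117 and 118 CPM at 6 h, 71.8, 75.0 and 126 CPM at 24 h and 92.7, 99.0 and 97.2 CPM at 72 h. All late libraries lay above all sham libraries, and at 24 h replicate 3 was again the highest. Its log2 fold changes were 1.44 ± 0.16 (adjusted p = 6.80e-06), 0.96 ± 0.16 (adjusted p = 0.000127) and 1.05 ± 0.16 (adjusted p = 9.93e-06). The drop from 6 h to 24 h (-0.48, adjusted p = 0.0247) was not called with library totals, in the fit of those groups alone or by limma, and it was lost without 6 h replicate 1, 24 h replicate 1 or 24 h replicate 2 (highest adjusted p = 0.128). Without 24 h replicate 3 the drop was larger, at -0.79 (adjusted p = 2.88e-05). In that fit the 24 h change against sham was 0.66 (adjusted p = 5.78e-05), and the step from 24 h to 72 h was called higher (0.38, adjusted p = 0.00299).

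Fas, the receptor of Fas ligand, was called higher at 6 h. Its values were 13.3, 15.8 and 14 CPM in sham, 15.4, 11.5 and 13.8 CPM at 10 min and 21.4, 17 and 12 CPM at 1 h. They reached 36.7, 30.9 and 30.3 CPM at 6 h, then 18.2, 10.0 and 17.8 CPM at 24 h and 11.7, 9.35 and 12.3 CPM at 72 h. The 6 h libraries lay above all others, at 2.26-fold the sham level (adjusted p = 0.000655), and from 6 h to 24 h the level fell by 1.09 on the log2 scale (adjusted p = 0.00128). At 72 h the log2 fold change was -0.37 with TMM factors and 0.21 with library totals, and neither was called, though it was called lower when only those groups were fitted. Its ligand gene Fasl had 2 counts in sham, 8 at 6 h, 0 at 24 h and 12 at 72 h, each over 3 libraries, too few to follow.

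Tnfrsf10b, which encodes the TRAIL receptor DR5, rose as its ligand gene fell. It held 3.08, 2.13 and 3.07 CPM in sham, 11, 7.13 and 8.15 CPM at 6 h, 4.49, 5.66 and 9.28 CPM at 24 h and 4.95, 6.12 and 5.89 CPM at 72 h. No late library overlapped sham. Changes on the log2 scale were 1.66 ± 0.25 (adjusted p = 0.000109), 1.22 ± 0.25 (adjusted p = 0.000771) and 1.03 ± 0.24 (adjusted p = 0.00115). Tnfsf10 stood at 0.399-fold the sham level at 6 h and Tnfrsf10b at 3.16-fold.

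Tnfrsf21 (DR6) was the one death domain receptor to fall. Its values were 36.0, 36.7 and 33.6 CPM in sham, 27.1, 26.4 and 27.4 CPM at 6 h, 24.3, 23.0 and 23.1 CPM at 24 h and 34.8, 35.4 and 30.6 CPM at 72 h. The libraries of 6 h and 24 h lay below those of sham and those of 72 h overlapped them. Against sham it was at -0.39 ± 0.12 at 6 h (adjusted p = 0.0165) and -0.59 ± 0.12 at 24 h (adjusted p = 0.000573) on the log2 scale, followed by a rise of 0.52 from 24 h to 72 h (adjusted p = 0.00102). The 6 h call was lost without sham replicate 1 or sham replicate 2 (highest adjusted p = 0.0554). At 72 h the sign depended on the scaling, -0.08 with TMM factors and 0.51 with library totals (adjusted p = 0.000525). Tnfrsf25 (DR3) was called at no time and stood at 3.78 ± 1.84 CPM in sham and 3.22 ± 1.23 CPM at 72 h.

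**Figure D3:**
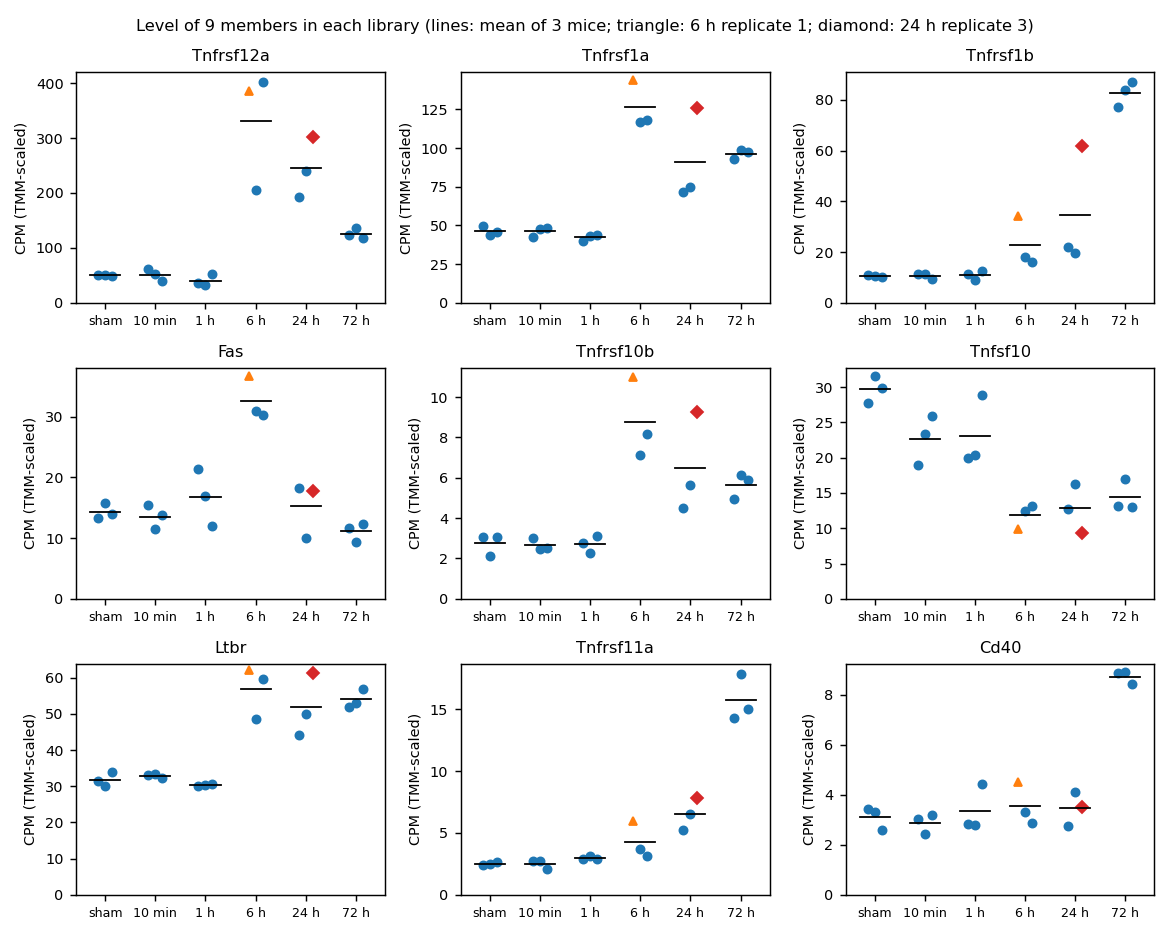
TMM-scaled CPM of 9 members in each library, by group, on linear axes from 0; points are libraries and lines are means of 3 mice. Tnfrsf12a, Tnfrsf1a, Fas and Tnfrsf10b had their highest mean at 6 h, where Fas lay between 30.3 and 36.7 CPM; Tnfrsf1b, Tnfrsf11a and Cd40 had it at 72 h, and Tnfsf10 was lower from 6 h on.

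Tnfrsf1b, TNF receptor 2, has no death domain and is found mainly on leukocytes and endothelium. It was higher than sham at each late time. The libraries held 10.9, 10.4 and 10.2 CPM in sham, 34.2, 18.1 and 16.2 CPM at 6 h, 22.1, 19.5 and 62.0 CPM at 24 h and 77.3, 83.9 and 87.1 CPM at 72 h. Every late library lay above sham, and the 72 h libraries lay above all others. Its log2 fold change was 1.12 at 6 h (adjusted p = 0.0420), 1.71 at 24 h (adjusted p = 0.00258) and 2.98 ± 0.39 at 72 h (adjusted p = 9.81e-06). The 6 h call was lost in 12 of 18 fits that left out 1 library, and without 6 h replicate 1 it was 0.72 (adjusted p = 0.219). Without 24 h replicate 3 the 24 h value was 0.99 (adjusted p = 0.00387). The step from 6 h to 24 h was 0.59 and was not called, and without that library it was -0.13 (adjusted p = 0.724).

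The balance of the 2 TNF receptors shifted at 72 h. As a ratio of levels per kilobase, Tnfrsf1b to Tnfrsf1a was 0.149, 0.16 and 0.15 in the sham libraries. At 6 h it was 0.16, 0.105 and 0.0931, and at 24 h 0.209, 0.176 and 0.335. At 72 h it was 0.566, 0.575 and 0.608, a mean of 0.583 ± 0.0221 against 0.153 ± 0.00608 in sham, with no overlap with any earlier library. The 10 min and 1 h libraries lay between 0.132 and 0.191. Tnfrsf1b made up 2.45% ± 0.0694 of the summed receptor level in sham and 8.68% ± 0.531 at 72 h. Macrophage and monocyte markers moved over the same libraries (6 of 6 higher at 72 h), and their part in the ratio was not tested.

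Tnfrsf11a, Tnfsf11 and Tnfrsf11b form the RANK system, known best from bone, where the ligand drives osteoclast formation and the secreted decoy osteoprotegerin binds the ligand. Tnfrsf11a, which encodes RANK, had the smallest adjusted p of the family at 72 h. It stood at 2.43, 2.49 and 2.62 CPM in sham, 5.96, 3.68 and 3.14 CPM at 6 h, 5.22, 6.51 and 7.84 CPM at 24 h and 14.3, 17.9 and 15.0 CPM at 72 h. The late libraries all lay above sham and those of 72 h above all others. Relative to sham the log2 change was 0.75 at 6 h (adjusted p = 0.0157), 1.37 ± 0.21 at 24 h (adjusted p = 8.49e-05) and 2.64 ± 0.21 at 72 h (adjusted p = 5.41e-09). The 6 h value was lost without sham replicate 1 or without 6 h replicate 1, where it was 0.44 (adjusted p = 0.142), and neither limma nor the fit of those groups alone called it.

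Both partners of RANK appeared late. Tnfsf11 had 0 counts in sham, 8 at 6 h, 11 at 24 h and 99 at 72 h over 3 libraries each. Set against a floor of 3 counts over the sham group, it was at least 21.2-fold higher at 72 h (adjusted p = 1.47e-05), and at least 2.91-fold and 3.19-fold higher at 6 h and 24 h. The 72 h libraries held 0.915, 0.853 and 1.34 CPM. The calls at 6 h and 24 h were fragile: the first was lost in 5 of 18 fits that left out 1 library (highest adjusted p = 0.0906), the second without 24 h replicate 3 (adjusted p = 0.0654).

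Tnfrsf11b had 2, 0 and 1 counts in the sham libraries and held 0.596, 0.335 and 0.0533 CPM at 6 h. At 24 h it held 0.345, 0.177 and 1.19 CPM and at 72 h 2.46, 4.35 and 2.51 CPM, the highest of all groups. The ratio to sham was 10.4 at 24 h (95% counting interval 3.30 to 52.9, adjusted p = 0.00986) and 64.2 at 72 h (21.7 to 313, adjusted p = 4.05e-06). Without 24 h replicate 3 the 24 h call was lost (adjusted p = 0.0801). Per kilobase, the ratio of Tnfsf11 to Tnfrsf11b at 72 h was 0.469, 0.247 and 0.670, so that ligand transcripts were fewer than those of the decoy in each of the 3 hearts. In earlier libraries both genes exceeded 3 counts in 3 libraries only.

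**Figure D4:**
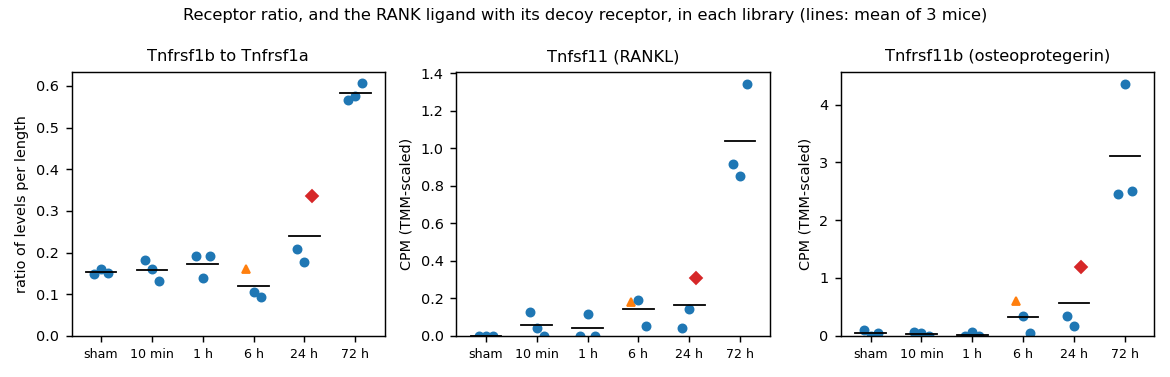
Ratio of Tnfrsf1b to Tnfrsf1a per kilobase, and TMM-scaled CPM of Tnfsf11 and Tnfrsf11b, in each library by group, on linear axes from 0; points are libraries and lines are means of 3 mice (triangle, 6 h replicate 1; diamond, 24 h replicate 3). The 72 h libraries lay above all others in all 3 panels, at 0.566 to 0.608 for the ratio.

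Ltbr, the lymphotoxin beta receptor, was higher at 6 h, 24 h and 72 h. Its libraries held 31.4, 30.1 and 33.9 CPM in sham, 62.2, 48.6 and 59.5 CPM at 6 h, 44.1, 50 and 61.2 CPM at 24 h and 52, 53 and 57 CPM at 72 h. All 9 late libraries lay above the sham ones. On the log2 scale the changes were 0.83 ± 0.11 (adjusted p = 3.79e-05), 0.70 ± 0.11 (adjusted p = 8.95e-05) and 0.76 ± 0.11 (adjusted p = 6.11e-06). With library totals they were 0.72, 0.90 and 1.35. The step from 24 h to 72 h was called higher with library totals and by limma, which shares that scaling. Ltbr and Tnfrsf1a are neighbours on chromosome 6, with Cd27 within the same 130 kb. Cd27, a T cell receptor, had 99 counts in all and fell below the count filter.

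Tnfrsf19 (TROY), a receptor of the nervous system and skin, also fell. It stood at 1.36, 2.59 and 2.31 CPM in sham, 0.298, 0.957 and 0.160 CPM at 6 h, 1.25, 0.955 and 0.877 CPM at 24 h and 0.757, 0.578 and 0.223 CPM at 72 h. Every late library lay below every sham library, and the log2 fold change was -2.09 ± 0.48 at 6 h (adjusted p = 0.00345), -1.02 at 24 h (adjusted p = 0.0594) and -2.00 ± 0.44 at 72 h (adjusted p = 0.000625). These are low levels, with 27 to 52 counts per sham library. Without 6 h replicate 2, the highest of its group, the 6 h value was -3.18.

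Tnfrsf22, Tnfrsf23 and Tnfrsf26 lie side by side within 78 kb of chromosome 7 and are close copies, so reads may have been split among them. Tnfrsf22 and Tnfrsf23 encode decoy TRAIL receptors. Tnfrsf23 rose: its sham mean was 1.53 ± 0.254 CPM, that of 24 h 8.72 ± 6.92 and that of 72 h 9.56 ± 1.7, with log2 fold changes of 2.49 ± 0.49 and 2.64 ± 0.49. Without 24 h replicate 3, which held 16.7 CPM, the 24 h value was 1.63 (adjusted p = 0.00143). Tnfrsf26 was also called at both times (2.84 ± 0.67 and 2.80 ± 0.66), and was 1.99 at 24 h without that library (adjusted p = 0.0170). Tnfrsf22 was called at 24 h (0.71, adjusted p = 0.0110), a call lost without 24 h replicate 3 (0.51, adjusted p = 0.0775) or sham replicate 2. At 72 h it was called with library totals (0.77, adjusted p = 0.00453) and by limma, which shares that scaling, but not with TMM factors (0.19).

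Of 9 receptors of lymphocytes and costimulation 7 could be tested, of which 1 was higher at 6 h, 2 at 24 h and 5 at 72 h. None was called lower at these times. The shares of all genes called higher were 16.3%, 23.7% and 34.2%. Of the receptors tested, Tnfrsf4, Tnfrsf8 and Tnfrsf9 had under 10 counts in every sham library and so entered the test through later groups. Tnfrsf9 was the call at 6 h and was among those at 24 h and 72 h, and Tnfrsf8 was among those at 72 h. Tnfrsf9, which encodes 4-1BB (CD137), had its highest mean at 24 h. It had 0.101, 0.0519 and 0.178 CPM in sham, 3.22, 2.87 and 1.81 CPM at 6 h, 4.66, 1.84 and 16.1 CPM at 24 h and 0.757, 0.853 and 0.382 CPM at 72 h. Late libraries did not overlap sham, and those of 72 h lay below all of those of 6 h and 24 h. Its log2 fold changes against sham were 4.47 ± 0.89 (adjusted p = 0.00172), 5.97 ± 0.84 (adjusted p = 6.51e-05) and 2.50 ± 0.99 (adjusted p = 0.0363). From 24 h to 72 h the level fell by 3.47 (adjusted p = 0.000240), and by 2.27 (adjusted p = 0.000175) without 24 h replicate 3, where the 24 h change against sham was 4.77. The step from 6 h to 24 h, 1.5, was not called, and without that library it was 0.30 (adjusted p = 0.641). The 72 h call was lost in 5 of 18 fits that left out 1 library, with a highest adjusted p of 0.105. On log2(FPKM + 1) limma called Tnfrsf9 neither at 6 h nor at 72 h. With 7 counts over the sham libraries, its fitted changes against sham are no measure of size.

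Tnfrsf13b (TACI, a receptor of APRIL and BAFF on B cells and macrophages) was called higher at 24 h and 72 h. It stood at 0.607, 1.09 and 0.844 CPM in sham, 3.10, 1.29 and 1.54 CPM at 6 h, 3.71, 2.9 and 7.32 CPM at 24 h and 8.77, 10.4 and 9.90 CPM at 72 h. The 6 h libraries lay above those of sham, and the 72 h libraries were the highest of all. At 6 h the log2 fold change of 1.20 was not called. DESeq2 and the fit of those groups alone did call it, as did the fits without 1 h replicate 3, 6 h replicate 2 or 24 h replicate 3. The step from 1 h to 6 h was called (1.86) but lost in 3 of 18 fits that left out 1 library. Against sham the changes were 2.44 ± 0.44 at 24 h (adjusted p = 0.000371) and 3.51 ± 0.44 at 72 h (adjusted p = 1.65e-06) on the log2 scale. Without 24 h replicate 3 the 24 h value was 1.96 (adjusted p = 0.00109). Summed B cell markers lay between 1.91 and 2.73 CPM in sham, between 4.42 and 5.19 CPM at 10 min and between 3.53 and 6.94 CPM at 1 h. They lay between 2.66 and 5.07 CPM at 6 h, 2.07 and 5.67 CPM at 24 h and 5.27 and 6.78 CPM at 72 h. Summed macrophage and monocyte markers lay between 179 and 200 CPM in sham, 467 and 608 CPM at 24 h and 2640 and 3450 CPM at 72 h. The other BAFF receptor gene of the family, Tnfrsf13c, had 1 count over the sham libraries and 19 over those of 72 h and fell below the count filter.

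Cd40, a receptor of antigen-presenting cells, was flat until 24 h and rose at 72 h. Its values were 3.44, 3.32 and 2.58 CPM in sham, 4.53, 3.30 and 2.88 CPM at 6 h, 2.76, 4.10 and 3.51 CPM at 24 h and 8.86, 8.92 and 8.43 CPM at 72 h. The 72 h libraries lay above the other 15, with a log2 fold change of 1.49 ± 0.21 against sham (adjusted p = 5.92e-06) and 1.33 ± 0.21 against 24 h (adjusted p = 3.56e-05). Tnfrsf14, the receptor of LIGHT that also binds BTLA, behaved in like manner, at 3.09 ± 0.153 CPM in sham, 2.88 ± 0.621 at 24 h and 6.12 ± 1.38 at 72 h (0.98 ± 0.21, adjusted p = 0.000384). Tnfrsf8 (CD30) was called at 72 h (2.62 ± 0.66, adjusted p = 0.00180) from 7 counts over the sham libraries, 6 of them in sham replicate 1, without which it was 4.63. Tnfrsf4 (OX40) and Tnfrsf18 (GITR) stood at 0.524 ± 0.164 and 0.783 ± 0.111 CPM at 72 h and were not called with TMM factors over all 18 libraries. For Tnfrsf4 at 72 h this depended on the fit. It was called with library totals (1.88, adjusted p = 0.0133) and by both limma fits, which share that scaling. It was also called with the replicate block and with only the groups compared.

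Members called between consecutive times changed in opposite directions within the family. From 1 h to 6 h 10 members were higher (14.5% of all genes) and 3 lower (10.0% of all genes). From 6 h to 24 h 6 were higher (14.2% of all genes) and 2 lower, Fas and Tnfrsf1a (13.7% of all genes). From 24 h to 72 h 11 were higher (24.4% of all genes) and 3 lower, Tnfrsf9, Tnfrsf12a and Tnfrsf22 (26.1% of all genes). The step from 6 h to 24 h was the least stable: with only the libraries of those groups in the fit 2 members were called, and without 6 h replicate 3 there were 3. Over all genes the calls also fell, from 4541 of 16311 to 1024 of 14810 and 3655 of 16758 in these fits.

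Genes that act next to the family were taken from lists of adaptors, proteases and more distant relatives. Of 27 adaptor and complex genes, 7 were higher and 3 lower at 6 h, 12 higher at 24 h, and 15 higher and 4 lower at 72 h, with medians of 0.13, 0.31 and 0.28. Beside them 16.3%, 23.7% and 34.2% of all genes were higher and 12.2%, 20.2% and 32.2% lower. Casp8, the caspase recruited by death domain receptors, was at 1.04 ± 0.2 at 6 h and 1.89 ± 0.2 at 72 h on the log2 scale. Tradd, the adaptor of TNF receptor 1, was not called at 6 h (0.25) and stood at 1.69 at 72 h (adjusted p = 5.30e-09), with Traf4 at 1.30 (adjusted p = 5.98e-08). Otulin, which trims linear ubiquitin, was at 0.63 at 6 h. Ikbkg, which encodes NEMO, fell by 0.49 at 6 h (adjusted p = 0.000796) and was at -0.43 at 72 h. Without 6 h replicate 1, 8 genes of the 3 lists together were called at 6 h in place of 14. Over all genes that fit called 2926 of 16738 at 6 h, against 4639 of 16311 with all libraries. With library totals none of the 27 was lower at 72 h, 24 were higher, and Ikbkg was at 0.16. On that scale 9472 of all 16311 genes were higher at 72 h and 2382 lower.

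Of 6 genes that shed or process the ligands, 3 were higher at 6 h, 2 higher and 1 lower at 24 h, and 4 higher and 1 lower at 72 h, with medians of 0.58, 0.21 and 0.44, and the shares of all genes are those given for the adaptors. With library totals 4 were higher and 0 lower at 24 h, where 5558 of all 16311 genes were higher and 1805 lower. At 72 h 5 were higher and 1 lower on that scale. With TMM factors Adam17, the main TNF sheddase, and Adam10 were not called at 6 h and 24 h. They stood at 1.02 (adjusted p = 9.63e-07) and 0.99 (adjusted p = 3.18e-07) at 72 h. Furin, a proprotein convertase that cuts TWEAK, BAFF and APRIL precursors, was highest at 6 h (1.06, adjusted p = 0.000133), with Rhbdf1 at 0.64. Timp3, an inhibitor of ADAM17, was higher at 6 h (0.83, adjusted p = 0.00189) and then lower, at -0.51 at 24 h and -1.87 at 72 h (adjusted p = 5.29e-08). With library totals Timp3 was not called lower at 24 h. Its group means were 245 CPM in sham, 435 at 6 h, 172 at 24 h and 67.0 at 72 h.

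Of 6 relatives outside the naming rule, 5 could be tested, of which 1 was higher at 6 h (16.3% of all genes), 3 at 24 h (23.7%) and 3 at 72 h (34.2%). Relt was called at all 3 late times (1.36 at 24 h and 1.03 at 72 h), Ngfr, the low-affinity neurotrophin receptor, stood at 2.41 at 72 h (adjusted p = 1.25e-06) and Eda2r at 0.88. Eda and Edar were not called at 6 h, at -0.46 and 0.46.

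The calls against sham of ligand and receptor genes can be set side by side. Tnfsf11 and Tnfrsf11a were both called at 6 h, 24 h and 72 h, and so were Ltb and Ltbr. Of the 18 fits that left out 1 library, the 6 h call was lost in 5 for Tnfsf11, 2 for Tnfrsf11a and 14 for Ltb. The 24 h call of Tnfsf11 was lost in 1. For LIGHT the ligand was called from 6 h on, its receptor Ltbr also from 6 h on and its other receptor Tnfrsf14 at 72 h alone. For 4-1BB both Tnfsf9 and Tnfrsf9 were called at 6 h, 24 h and 72 h. From 24 h to 72 h the receptor fell, while the ligand held 2.95 and 2.79 CPM. Without 24 h replicate 3 the ligand mean at 24 h was 2.11 CPM. The 72 h call of Tnfrsf9 was lost in 5 of those 18 fits. For CD30 both genes were called at 72 h. For TRAIL the ligand was lower and Tnfrsf10b higher at each late time. For TNF, Tnfrsf1a rose at 6 h, where Tnf was not called (0.74 ± 0.88, adjusted p = 0.569).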

How the data were processed

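Poly(A)-selected RNA from 18 mouse hearts had been sequenced. Per the submitters' processing notes, cutadapt 1.18, HISAT2 2.1.0 and featureCounts were used with the mm10 build; the strand setting is not given in the sources used here. The authors deposited raw counts per gene and FPKM values for each sample. Counts were tested. The FPKM, which are scaled by library totals, served for gene lengths and for limma fits. Those limma fits share the scaling of the fit with library totals. The FPKM of 6 h replicates 2 and 3 each match the other's counts, which moves no group mean.

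Symbols came from GENCODE M21. Genes were kept by filterByExpr (16311 kept, 14272 removed), scaled with TMM factors and fitted over all 18 libraries with edgeR 4.0.16 (R 4.3.3; quasi-likelihood test, Benjamini-Hochberg adjusted p under 0.05 over all genes). limma 3.58.1 on log2(FPKM + 1) and DESeq2 1.42.0 were alternatives, and the pipeline was tested on simulated data. CPM were computed from counts with TMM-scaled library sizes. PCR reads carry no molecular identifiers, so counting intervals cover counting error only. The labels give 3 mice per group and not how they were handled, so p-values measure the spread between these samples.

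Values in each library are given for the 5 members of smallest adjusted p per direction at 6 h, 24 h and 72 h and for the 3 ligands and 3 receptors of highest level per length; Tnf, Tnfrsf1b, Tnfsf14 and Tnfsf11 were added after their values were seen. In other lists the 3 genes of smallest adjusted p at 6 h and at 72 h are named. The members and lists were chosen with earlier results of these data known. With library totals in place of TMM factors all genes together had a median log2 fold change of -0.12, 0.20 and 0.61 at 6 h, 24 h and 72 h, and 40.6%, 75.5% and 79.9% of called genes were higher, against 57.2%, 54.0% and 51.4%.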

Additional observations from a re-analysis of the deposited data

Results flagged for a closer look

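For 6 members the effect against sham was called at one time and then shrank, with the difference between the times itself called. The share of all genes that did so is not given here. Of all 16311 genes, 4541 differed from 6 h to 24 h and 8231 from 24 h to 72 h, in any direction. Fas was higher at 6 h and the log2 difference from 6 h to 24 h was -1.09. Tnfrsf1a was higher at 6 h and the same difference was -0.48. From 24 h to 72 h the log2 difference was -0.96 for Tnfrsf12a, -3.47 for Tnfrsf9 and -0.52 for Tnfrsf22, each higher at 24 h, and 0.52 for Tnfrsf21, which was lower at 24 h. The Tnfrsf1a and Tnfrsf22 differences were each lost in 3 of 18 fits that left out 1 library and were not called with library totals. Without 24 h replicate 3 that of Tnfrsf1a was -0.79 and that of Tnfrsf22 was -0.33. Groups of 3 are too small for a check of single outlying samples.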

How the results depend on the processing

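Of 56 calls against sham, 47 held in each of the 18 fits that left out 1 library, and 9 were lost in at least 1; of 35 calls between consecutive times, 13 were lost in at least 1. No member was called at 10 min, at 1 h or between them under any setting tried. Leaving out 1 library gave 10 to 19 members at 6 h, 16 to 22 at 24 h, 21 to 25 at 72 h, 9 to 16 from 1 h to 6 h, 3 to 10 from 6 h to 24 h, 12 to 15 from 24 h to 72 h and 26 to 29 over all groups. Of the 16557 to 16772 genes tested in those fits, 2926 to 5319 were called at 6 h, 5466 to 7566 at 24 h and 10056 to 11302 at 72 h. For the steps in the same order they were 2481 to 4712, 3607 to 5028 and 7087 to 8496, and over all groups 12074 to 12991. In those fits the signalling genes called numbered 8 to 19 at 6 h. With only the groups compared in the fit, 2 members were called from 6 h to 24 h, beside 1024 of 14810 genes. Library totals gave 13, 19 and 28 members at 6 h, 24 h and 72 h, DESeq2 19, 19 and 22, limma on log2(FPKM + 1) 11, 17 and 27, and a summed count of 50 as the filter 14, 21 and 24. Over all genes, TMM factors gave 4639, 7149 and 10831 calls of 16311 at these times. Library totals gave 4716, 7363 and 11854 of 16311, and DESeq2 4893, 7343 and 10829 of 16306. That limma fit gave 4123, 7144 and 11957 of 16311, and the filter of 50 gave 4550, 7125 and 11006 of 17869.

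Tnfrsf21 at 72 h took the opposite sign with library totals (0.51), limma on log2(FPKM + 1) (0.46) and limma on log2(FPKM + 0.1) (0.50). These settings all scale by library totals, so they are not separate checks of the sign. As a ratio of raw counts, Tnfrsf1b to Tnfrsf1a was 0.225, 0.233, 0.255, 0.176, 0.354 and 0.859 from sham to 72 h, which differs from the ratio per kilobase by a constant factor of length.

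Replicate numbers did not pair the samples: the correlation of deviations between same-numbered libraries averaged 0.0156 over 45 pairs (-0.256 to 0.252), and 6 of 18 libraries correlated best with their own number. With the replicate block 14, 19 and 23 members were called at 6 h, 24 h and 72 h, 12, 6 and 15 between consecutive times from 1 h on, and 28 over all groups. Of all 16311 genes that fit called 4540, 7091 and 10784, then 3915, 4451 and 8147, and 12658. Depth limits the members under 10 counts per sham library, whose fitted fold changes are not measures of size.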
